A study of Sus scrofa with 8 samples.

Results

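The collagen genes of limb muscle were followed in embryos of the pig (Sus scrofa), by bulk RNA sequencing of 8 libraries. A gene was taken as a collagen gene where its mapped symbol is COL, a number, A and a number, and 40 of the 22516 genes in the deposited table met this. By structure they are 11 fibrillar chains, 9 network-forming chains, 5 beaded-filament chains, 8 fibril-associated chains with interrupted triple helices (FACITs), 2 multiplexins, 4 transmembrane collagens and COL28A1. A cartilage type of 6 genes (COL2A1, COL9A1, COL9A3, COL10A1, COL11A1 and COL11A2) cuts across these classes. All 40 passed the filter on low counts. COL7A1, COL9A2, COL20A1 and COL26A1 were not analysed here.

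The 4 groups, with 2 libraries each, were wild-type embryos at embryonic day 41 (E41), embryos with a knockout of MYF5, MYOD (gene symbol MYOD1) and MYF6 at E41, and the same 2 genotypes at E62. MYF5, MYOD1 and MYF6 encode transcription factors that commit cells to the skeletal muscle lineage, so the design asks how limb muscle tissue changes without them at each stage. The labels name no treatment, strain, sex or allele, and they do not say how the knockout was made. The sample labels say knockout, which is used here, but the series title says knockdown. For the later stage the growth protocol gives day 60 and the sample labels E62. The 2 libraries of a group are labelled biological replicates, but whether they are littermates is not stated, and in each group their names hold a number that the other groups lack. Names of the wild-type E41 libraries also hold a limb code that the other 6 do not. A litter, a limb side or a preparation that goes with these names cannot be told apart from the group.

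Collagens are proteins of the extracellular matrix in which 3 chains wind into a triple helix. Fibrillar collagens assemble into the tensile fibrils of connective tissue, with types I and III as the main ones in skin, tendon and the sheaths of muscle, and FACITs sit on the surface of those fibrils. Type IV collagen forms the sheet-like network of basement membranes, which wraps every muscle fibre, and type VI collagen forms beaded filaments close to that basement membrane. In muscle, fibroblasts of the connective tissue make most fibrillar collagen, whereas types XIX and XXII have been described in muscle cells, type XXII at the junction with tendon.

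Libraries held 23402052 to 60539245 counts. At E41 they held 23402052 and 25239378 in wild type against 42352383 and 42668408 in the knockout. At E62 they held 35867841 and 37676855 against 60539245 and 52630708. Knockout libraries were thus the deeper ones at each stage, and raw counts of a gene cannot be compared between groups without scaling. MYF5 and MYF6 had 0 counts in all 4 knockout libraries. MYOD1 stood at 72.6 and 95.6 CPM in wild type at E41 against 0.603 and 0.434 in the knockout and, at E62, 172 and 153 against 1.14 and 1.47. Levels are counts scaled to library size by the trimmed mean of M-values (TMM) and written CPM, with replicate 1 before replicate 2. The summed level of 11 skeletal muscle markers, among them MYH3, ACTA1 and MYOG, was 14953 and 13355 CPM in wild type at E41 against 26.7 and 24.4 in the knockout and, at E62, 34437 and 43436 against 13.04 and 14.6, and all 11 were lower in the knockout at both stages. On the second principal component of the 500 most variable genes knockout E62 replicate 2 lay apart from replicate 1, at 35.2 against 10.3. Single libraries also stood apart in markers of tissues next to muscle. Cartilage markers (13 genes) were highest in knockout E41 replicate 2 and epidermal markers (9 genes) in knockout E62 were high in replicate 1 alone, and their values stand beside the genes they move with.

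Collagen transcripts took a larger share of each knockout library than of either wild-type library of the same stage. The 40 genes held 4.48% and 2.68% of the counts in wild type at E41 against 7.10% and 7.92% in the knockout and, at E62, 3.21% and 5.25% against 11.4% and 12.4%. In the same order the means were 3.58% ± 1.27 (SD, n = 2), 7.51% ± 0.577 (SD, n = 2), 4.23% ± 1.44 (SD, n = 2) and 11.9% ± 0.707 (SD, n = 2). Genotypes did not overlap at either stage. With 2 libraries against 2, an exact two-sided permutation test cannot give a p below 0.333, so these shares carry no test. COL1A1, COL1A2 and COL3A1 together made up 63.3% to 78.7% of the collagen counts of a library, so the share follows mainly these 3 genes. When counts of muscle markers and mitochondrial genes were taken out of the total, each group mean moved by less than 1 SD. The muscle markers taken out held only 1.20% to 3.91% of the counts of a wild-type library. Other transcripts of muscle cells stayed in the total, so this does not show what the share would be without muscle RNA. In bulk tissue, fewer cells of a type and less RNA per cell cannot be told apart, for the collagens as for the muscle markers.

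**Figure D1:**
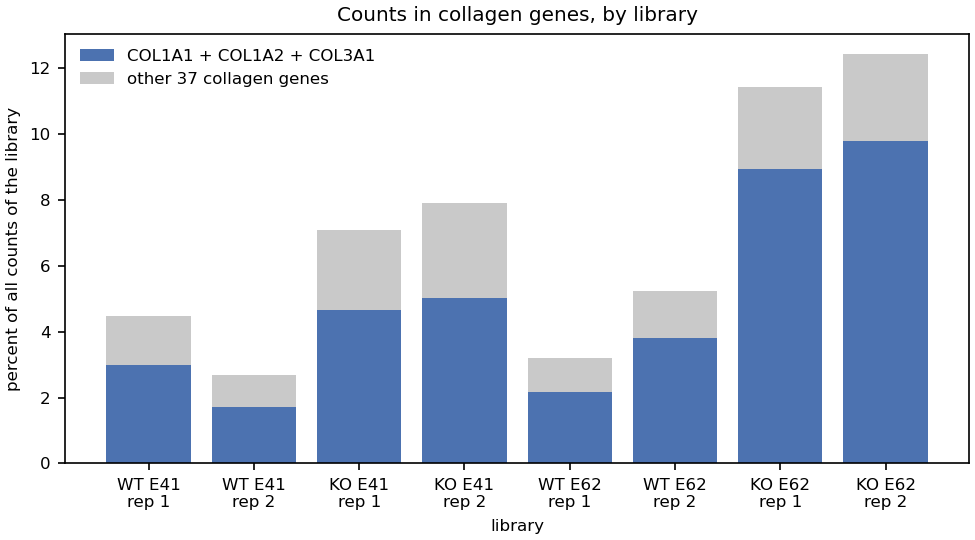
Percent of each library's counts in collagen genes (vertical axis), with 1 stacked bar per library and COL1A1, COL1A2 and COL3A1 in blue. WT is wild type and KO knockout. Both knockout bars are taller than both wild-type bars at E41 (7.10% and 7.92% against 4.48% and 2.68%) and at E62 (11.4% and 12.4% against 3.21% and 5.25%).

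Gene by gene, the collagens were higher in the knockout more often than lower at both stages. At E41, 17 of 40 rose and 2 fell, against 18.5% of all 17020 tested genes called higher and 20.8% called lower (39.2% in either direction). At E62, 16 rose and 7 fell, against 21.0% and 26.2% of all tested genes (47.2% in either direction). The median log2 change of the 40 was 0.88 at E41 and 0.98 at E62, with medians over all tested genes of 0.09 and 0.06. The count of rises at E41 was 9 without wild-type E41 replicate 2 and 7 without knockout E41 replicate 1, and at E62 it was 9 without wild-type E62 replicate 1. Calls come from edgeR's quasi-likelihood F test with a Benjamini-Hochberg adjusted p under 0.05 over all tested genes. Values of change are log2 knockout minus wild type, given with the standard error (SE, the change divided by the square root of F), from 2 libraries per group. CPM is not corrected for gene length, so levels are compared within a gene and not between genes.

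Of the 40, 8 rose at both stages, namely COL1A1, COL24A1, COL27A1, COL4A5, COL4A6, COL12A1, COL16A1 and COL13A1. COL19A1 and COL22A1 fell at both. COL4A4, COL6A2, COL18A1 and COL23A1 rose at E41 and fell at E62. Another 5 rose at E41 without a call at E62, 8 rose at E62 without a call at E41, COL4A3 fell at E62, and 12 were not called at either stage. The share of all tested genes in each of these joint classes was not computed. These joint counts therefore do not show that collagens differ from other genes. The 2 genotype comparisons share no libraries, but all 8 libraries were fitted together, with a common filter, scaling and estimate of the spread. Calls at the 2 stages are therefore not independent. For COL1A1 and COL12A1 the E41 call ended without either knockout E62 library. Without regard to a test, the replicates of the 2 genotypes did not overlap for 29 genes at E41, 24 of them higher and 5 lower in the knockout, where the shares over all tested genes were 40.1% and 33.3%. At E62 they did not overlap for 33 genes, 25 higher and 8 lower, where those shares were 40.1% and 37.3%.

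**Figure D2:**
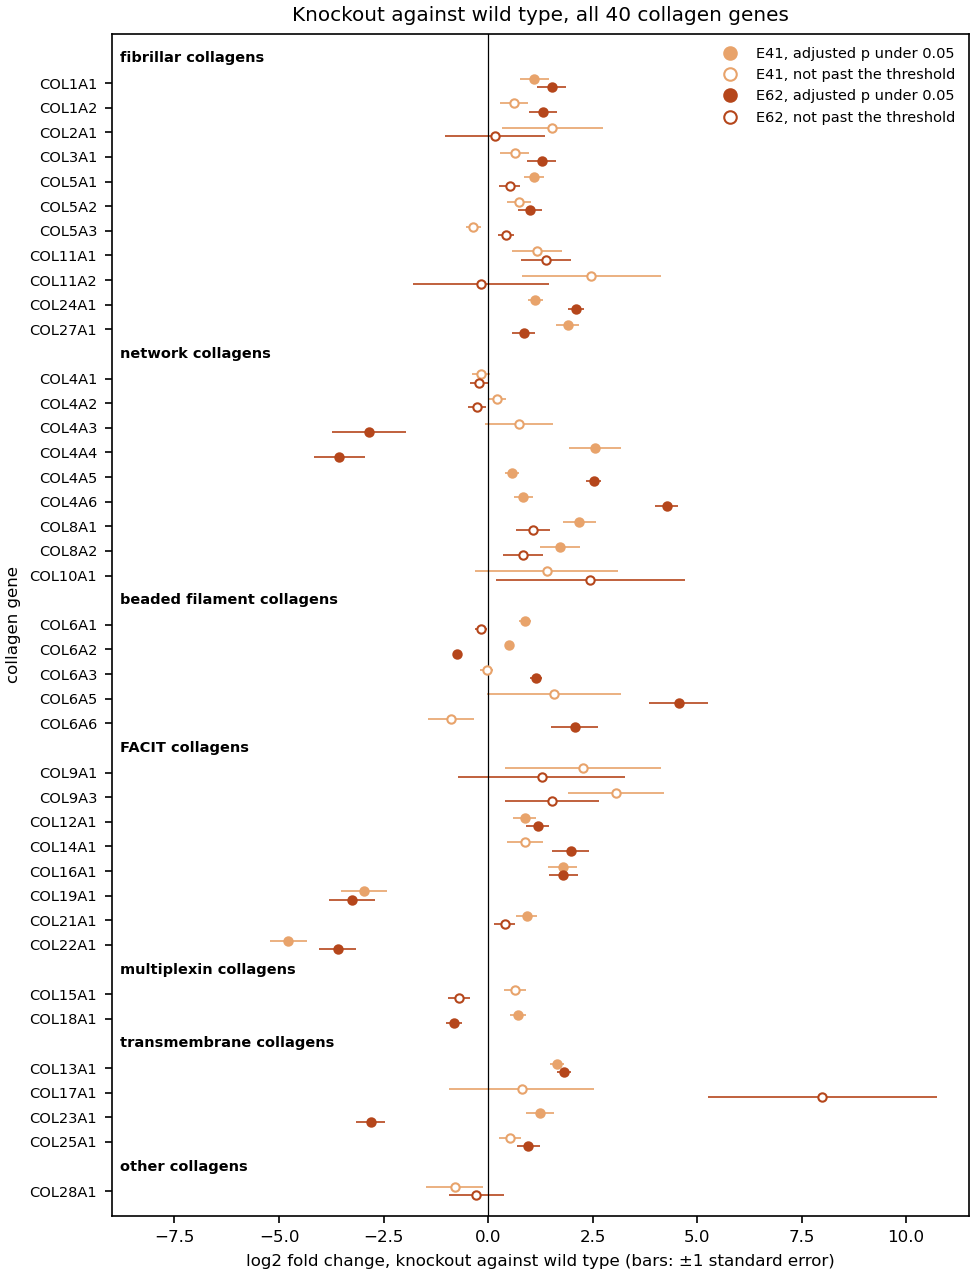
Log2 fold change of knockout against wild type (horizontal axis, bars 1 SE) for the 40 collagen genes by class, with E41 in light and E62 in dark orange and filled points past the threshold. Most filled points lie right of 0, COL19A1 and COL22A1 lie left of 0 at both stages, and COL4A4 and COL23A1 lie on opposite sides at the 2 stages.

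Fibrillar chains gave 4 rises of 11 at E41 and 6 of 11 at E62, with no fall, and their median log2 change was 1.11 and 1.00. The rises are 36.4% and 54.5%, against 18.5% and 21.0% of all tested genes. COL1A1, the α1 chain of type I collagen, stood at 6939.8 and 3802 CPM in wild type at E41 against 11026 and 12128 in the knockout and, at E62, 4601 and 8423 against 18384 and 19017. Every knockout library lay above both wild-type libraries of its stage. The change was 1.11 ± 0.35 (adjusted p = 0.041) at E41 and 1.52 ± 0.36 (adjusted p = 0.011) at E62. COL1A2, the partner chain in the type I molecule, stood at 11281 and 6014 CPM in wild type at E41 against 12049 and 14674 in the knockout and, at E62, 6049.8 and 9612 against 19454 and 19649. It rose at E62 by 1.32 ± 0.33 (adjusted p = 0.014), while the E41 value was 0.63 ± 0.33 (adjusted p = 0.17). COL3A1, the chain of type III collagen of compliant tissues, stood at 15584 and 9470.2 CPM in wild type at E41 against 19341 and 19619 in the knockout and, at E62, 12699.7 and 24103 against 42128 and 47238, and rose at E62 by 1.28 ± 0.34 (adjusted p = 0.017), with 0.64 ± 0.34 (adjusted p = 0.17) at E41. For all 3 genes the wild-type replicates differed more than the knockout replicates, with wild-type E41 replicate 2 and wild-type E62 replicate 1 the lower ones.

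Type V collagen joins type I fibrils and limits their width. COL5A1 stood at 2344 and 1576 CPM in wild type at E41 against 4295 and 4072 in the knockout and, at E62, 2098 and 3099 against 3437 and 3989, and COL5A2 at 4402 and 2477 CPM in wild type at E41 against 5511 and 6008 in the knockout and, at E62, 2044 and 2979 against 4778 and 5239. COL5A1 rose at E41 by 1.09 ± 0.24 (adjusted p = 0.0098) and gave 0.51 ± 0.24 (adjusted p = 0.11) at E62, whereas COL5A2 gave 0.74 ± 0.29 (adjusted p = 0.076) at E41 and rose at E62 by 1.00 ± 0.29 (adjusted p = 0.024). Neither gene's difference between the stages passed the test. COL5A3, another chain of the type, stood at 157 and 122 CPM in wild type at E41 against 121 and 98.3 in the knockout and, at E62, 303 and 376 against 405 and 510.4, and gave -0.35 ± 0.19 (adjusted p = 0.18) at E41 and 0.43 ± 0.19 (adjusted p = 0.094) at E62.

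COL24A1 and COL27A1 encode fibrillar collagens that are found in and near the growing skeleton, and both were higher in all 4 knockout libraries than in the wild-type libraries of their stage. COL24A1 stood at 19.3 and 28.4 CPM in wild type at E41 against 47.6 and 56.9 in the knockout and, at E62, 20.8 and 22.0 against 88.7 and 95.7. It rose by 1.13 ± 0.18 (adjusted p = 0.0025) at E41 and by 2.11 ± 0.18 (adjusted p = 9.8e-05) at E62. COL27A1 stood at 53.5 and 40.6 CPM in wild type at E41 against 144 and 209.5 in the knockout and, at E62, 126 and 169 against 221 and 311, and rose by 1.91 ± 0.28 (adjusted p = 0.0025) and 0.85 ± 0.27 (adjusted p = 0.038). The remaining fibrillar chains, COL2A1, COL11A1 and COL11A2, are of the cartilage type and are described with it.

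Single libraries carried several fibrillar calls. For COL1A1 at E41 the adjusted p was 0.16 without wild-type E41 replicate 2, 0.11 without knockout E41 replicate 1, 0.14 without knockout E41 replicate 2, 0.06 without knockout E62 replicate 1 and 0.062 without knockout E62 replicate 2. Leaving out wild-type E41 replicate 2 or knockout E41 replicate 1 gave 0.055 and 0.052 for COL5A1 at E41. At E62, wild-type replicate 1 decided most of them, since without it the adjusted p was 0.054 for COL1A1, 0.091 for COL1A2, 0.083 for COL3A1, 0.15 for COL5A2 and 0.19 for COL27A1. Other libraries ended the E62 call of COL3A1 (0.062 without knockout E62 replicate 2), COL5A2 (0.056 and 0.084 without knockout E62 replicate 1 or 2) and COL27A1 (0.058 without wild-type E62 replicate 2 and 0.16 without knockout E62 replicate 2). COL24A1 was called at both stages and COL27A1 at E41 whichever library was left out.

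FACITs gave 3 rises and 2 falls of 8 at each stage, with medians of 0.91 and 1.24. These are 37.5% higher and 25.0% lower. Over all tested genes the shares were 18.5% and 20.8% at E41, and 21.0% and 26.2% at E62. COL12A1 and COL16A1 rose at both stages, COL21A1 at E41 and COL14A1 at E62, while COL19A1 and COL22A1 fell at both. COL12A1, type XII collagen of tendon and of the sheaths of muscle, stood at 1436 and 873 CPM in wild type at E41 against 2221 and 2029 in the knockout and, at E62, 993 and 1537 against 2902 and 2887. It rose by 0.88 ± 0.27 (adjusted p = 0.038) at E41 and 1.19 ± 0.27 (adjusted p = 0.0099) at E62. COL14A1, type XIV collagen, stood at 404 and 181 CPM in wild type at E41 against 449 and 637 in the knockout and, at E62, 270.1 and 455 against 1428 and 1429.7. Its rise at E62 was 1.98 ± 0.44 (adjusted p = 0.013), and its E41 value was 0.89 ± 0.43 (adjusted p = 0.15). COL16A1, type XVI collagen, stood at 479 and 304 CPM in wild type at E41 against 1286 and 1408 in the knockout and, at E62, 330.1 and 668 against 1677 and 1812, and rose at both stages by a like amount, 1.78 ± 0.36 (adjusted p = 0.0087) and 1.80 ± 0.36 (adjusted p = 0.0065). COL21A1, type XXI collagen, stood at 724 and 437 CPM in wild type at E41 against 1111 and 1088 in the knockout and, at E62, 639 and 895 against 924 and 1094. It rose at E41 by 0.92 ± 0.26 (adjusted p = 0.027) and gave 0.40 ± 0.26 (adjusted p = 0.24) at E62.

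COL19A1, type XIX collagen, was 33.9 and 41.8 CPM in wild-type E41 and 33.5 and 34.7 in wild-type E62, against 5.70 and 3.97 and 5.44 and 1.65 in the knockout of the same stages. It fell by 2.97 ± 0.54 (adjusted p = 0.0082) at E41 and by 3.26 ± 0.54 (adjusted p = 0.0047) at E62 on the log2 scale. COL22A1, type XXII collagen, was 94.3 and 96.8 CPM in wild-type E41 and 5.06 and 1.91 in knockout E41. At E62 it was 22.2 and 16.6 CPM in wild type and 1.68 and 1.52 in knockout. Its log2 change was -4.78 ± 0.45 (adjusted p = 0.00067) and -3.60 ± 0.44 (adjusted p = 0.0012), the largest fall among the 40 at each stage. Both genes still had counts in every knockout library.

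Among FACITs, leaving out a library ended the COL12A1 call at E41 (adjusted p = 0.15 without wild-type E41 replicate 2, 0.14 without knockout E41 replicate 1, 0.099 without knockout E41 replicate 2, 0.055 without knockout E62 replicate 1 and 0.056 without knockout E62 replicate 2) and at E62 (0.06 without wild-type E62 replicate 1). It also ended the E62 call of COL14A1 (0.075 without wild-type E62 replicate 1), the E41 call of COL21A1 (0.089 without wild-type E41 replicate 2, 0.097 without knockout E41 replicate 1 and 0.088 without knockout E41 replicate 2) and the E41 call of COL19A1 (0.067 without knockout E41 replicate 2). COL16A1 and COL22A1 were called at both stages whichever library was left out, with log2 changes of -5.64 for COL22A1 at E41 without knockout E41 replicate 1 and 2.40 for COL16A1 at E62 without wild-type E62 replicate 2. For COL19A1 at E62 the change ran from -4.37 to -2.65 when either knockout E62 library was left out.

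**Figure D3:**
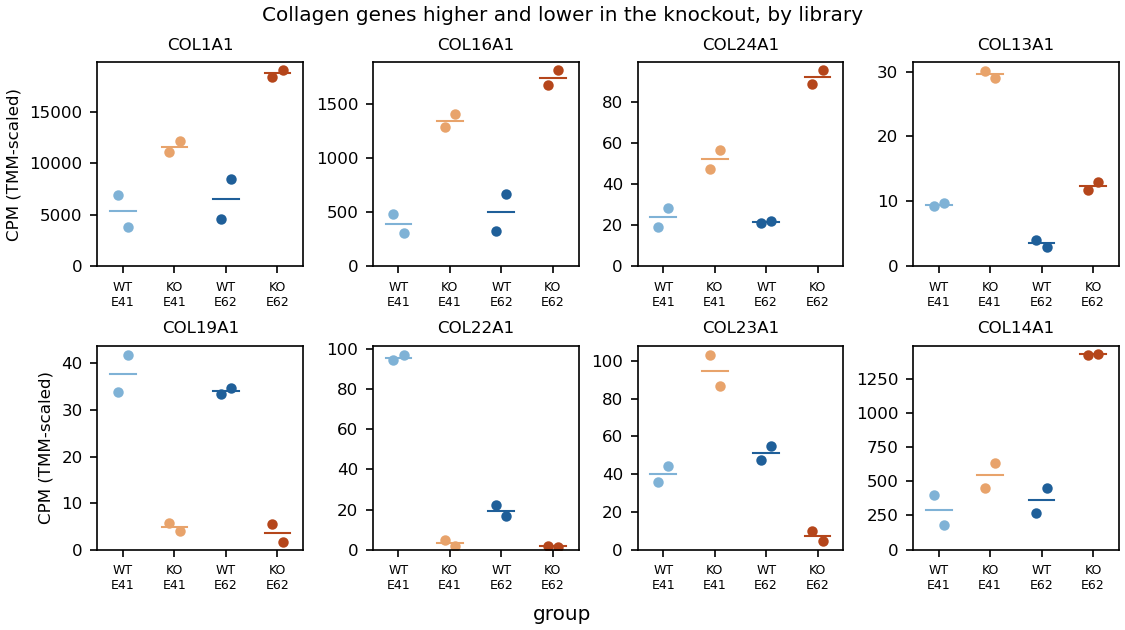
TMM-scaled CPM (vertical axis, from 0 in each panel) of 8 collagen genes by group, with 1 point per library and a line at the group mean of 2 libraries. COL1A1, COL16A1, COL24A1 and COL13A1 are higher in the knockout at both stages, COL19A1 and COL22A1 lower at both, COL23A1 is lowest in knockout E62, and COL14A1 is highest there (1428 and 1429.7 CPM).

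The type IV chains are encoded by 3 pairs of neighbouring genes, and the pairs differed. The α1 and α2 chains, which form the network of nearly all basement membranes, were not called at either stage. COL4A1 stood at 1287 and 882 CPM in wild type at E41 against 1019 and 912 in the knockout and, at E62, 1195 and 1638 against 1164 and 1284, and COL4A2 at 1027 and 689 CPM in wild type at E41 against 1019 and 969.6 in the knockout and, at E62, 926 and 1257 against 864 and 951. The genotypes overlapped for both genes at both stages, with changes of -0.17 ± 0.21 (adjusted p = 0.57) and -0.21 ± 0.21 (adjusted p = 0.44) for COL4A1 and 0.21 ± 0.21 (adjusted p = 0.46) and -0.27 ± 0.21 (adjusted p = 0.33) for COL4A2.

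The α5 and α6 chains, found in basement membranes of skin, smooth muscle and, in development, other tissues, were the most raised network chains at E62. COL4A5 stood at 53.1 and 66.4 CPM in wild type at E41 against 97.2 and 82.0 in the knockout and, at E62, 12.4 and 16.4 against 87.8 and 78.2. COL4A6 stood at 18.6 and 25.3 CPM in wild type at E41 against 44.6 and 34.0 in the knockout and, at E62, 1.59 and 2.59 against 41.5 and 39.4. Both were low in wild-type E62 alone. From E41 to E62 they fell in wild type and gave -0.11 ± 0.17 (adjusted p = 0.63) and 0.04 ± 0.22 (adjusted p = 0.9) in the knockout, neither called. COL4A5 rose by 0.58 ± 0.17 (adjusted p = 0.028) at E41 and 2.53 ± 0.18 (adjusted p = 3.4e-05) at E62, and COL4A6 by 0.84 ± 0.23 (adjusted p = 0.025) and 4.27 ± 0.27 (adjusted p = 2.6e-05). The E62 change exceeded the E41 change by 1.94 ± 0.24 (adjusted p = 0.002) for COL4A5 and 3.43 ± 0.35 (adjusted p = 0.0013) for COL4A6. The summed level of epidermal markers, 679 and 1072 CPM in wild type at E41 against 1481 and 827 in the knockout and, at E62, 18.9 and 19.4 against 1132 and 53.5, was also lowest in wild-type E62. In knockout E62 the log2 difference between the replicates was -0.17 for COL4A5 and -0.08 for COL4A6. The part of epidermal tissue in these levels was not tested. The E41 calls ended without wild-type E41 replicate 1 (adjusted p of 0.12 for COL4A5 and 0.11 for COL4A6) and without knockout E41 replicate 1 (0.15 and 0.14), and the E62 calls did not end whichever library was left out.

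The α3 and α4 chains, best known from kidney, lung and the inner ear, had few counts. COL4A3 had 10 and 9 counts in wild type at E41 against 41 and 27 in the knockout and, at E62, 31 and 7 against 8 and 2, and COL4A4 had 4 and 10 counts in wild type at E41 against 95 and 80 in the knockout and, at E62, 66 and 56 against 5 and 14. COL4A4 was high in knockout E41 and wild-type E62 and low in the other 4 libraries. It rose at E41 by 2.55 ± 0.62 (adjusted p = 0.014) and fell at E62, with a change of -3.56 ± 0.62 (adjusted p = 0.0024). COL4A3 gave 0.74 ± 0.81 (adjusted p = 0.51) at E41 and fell at E62, at -2.84 ± 0.88 (adjusted p = 0.031). Without wild-type E41 replicate 1 or knockout E41 replicate 1 the E41 adjusted p of COL4A4 was 0.064 and 0.065, and without wild-type E41 replicate 2 its change was 3.29. Its E62 change ran from -4.56 to -2.95 when a knockout E62 library was left out. The E62 call of COL4A3 ended without several libraries (0.056 without knockout E41 replicate 1, 0.054 without knockout E41 replicate 2, 0.31 without wild-type E62 replicate 1 and 0.13 without knockout E62 replicate 2), and its change ran from -3.97 to -1.39 over the E62 libraries left out.

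Types VIII and X complete the network chains. Of all 9 network chains, 5 rose at E41 (55.6%, against 18.5% of all tested genes) and no chain fell. At E62, 2 rose and 2 fell (22.2% each, against 21.0% and 26.2%). The type VIII chains COL8A1 and COL8A2, made by endothelium, smooth muscle and mesenchyme, rose together at E41. COL8A1 stood at 21.5 and 17.9 CPM in wild type at E41 against 73.0 and 106 in the knockout and, at E62, 6.02 and 3.06 against 12.1 and 6.96, and COL8A2 at 132 and 60.6 CPM in wild type at E41 against 232 and 398 in the knockout and, at E62, 19.6 and 18.0 against 41.9 and 25.5. At E41 the changes were 2.19 ± 0.40 (adjusted p = 0.0079) and 1.71 ± 0.48 (adjusted p = 0.037). At E62 the knockout libraries also lay above the wild-type ones, but the changes, 1.07 ± 0.41 (adjusted p = 0.078) and 0.84 ± 0.48 (adjusted p = 0.2), did not pass. Without wild-type E41 replicate 2 the E41 adjusted p was 0.055 for COL8A1. That of COL8A2 was 0.094 without wild-type E41 replicate 2, 0.055 without knockout E41 replicate 1, 0.15 without knockout E41 replicate 2, 0.077 without wild-type E62 replicate 1 and 0.077 without wild-type E62 replicate 2, and 0.083 in a fit of the E41 libraries alone. Without the filter on low counts its adjusted p was 0.056. Without wild-type E41 replicate 1 the change of COL8A2 was 2.42. At E41 both chains were higher in wild-type replicate 1 and knockout replicate 2 than in the other replicate of each group, as were the 13 cartilage markers, which summed to 349 and 85.2 CPM in wild type and 145 and 1684 in the knockout. The part of cartilage in these levels was not tested.

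Type VI collagen is built as a heterotrimer of the α1 and α2 chains with a longer partner chain, which is α3 in most tissues and can be α5 or α6. Of the 5 genes, 2 rose at E41, and 3 rose and 1 fell at E62. These are 40% higher at E41, and 60% higher and 20% lower at E62. Over all tested genes 18.5% were higher at E41, and 21.0% higher and 26.2% lower at E62. COL6A1 stood at 668 and 535 CPM in wild type at E41 against 1096 and 1109.8 in the knockout and, at E62, 539.6 and 637 against 494 and 546, and COL6A2 at 375 and 339 CPM in wild type at E41 against 511 and 492 in the knockout and, at E62, 353 and 373 against 218 and 217. Both rose at E41, by 0.87 ± 0.14 (adjusted p = 0.0026) and 0.49 ± 0.10 (adjusted p = 0.0055). At E62 the COL6A1 genotypes overlapped, with -0.18 ± 0.14 (adjusted p = 0.33), and COL6A2 fell, at -0.74 ± 0.10 (adjusted p = 0.00062). COL6A3 stood at 739 and 652 CPM in wild type at E41 against 727 and 629 in the knockout and, at E62, 362 and 449 against 959.6 and 846. It overlapped between genotypes at E41, with -0.04 ± 0.15 (adjusted p = 0.87), and rose at E62 by 1.15 ± 0.15 (adjusted p = 0.00059).

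COL6A6, an α6 chain gene, stood at 60.5 and 38.9 CPM in wild type at E41 against 22.9 and 31.0 in the knockout and, at E62, 133 and 405 against 1235 and 1026. At E41 the knockout libraries lay below the wild-type ones, with a change of -0.88 ± 0.55 (adjusted p = 0.26), and at E62 they lay above, at 2.07 ± 0.56 (adjusted p = 0.029). COL6A5, another gene of the same family on its chromosome, had 1 and 0 counts in wild type at E41 against 2 and 5 in the knockout and, at E62, 4 and 22 against 708 and 469. Its rise at E62 was 4.56 ± 0.70 (adjusted p = 0.0016). For E41 the ratio of knockout to wild type, from 7 counts against 1 and scaled for library size, was 3.28 with a 95% Clopper-Pearson interval of 0.421 to 148, which covers counting error only. The differences between stages passed for COL6A1 (-1.05), COL6A2 (-1.23), COL6A3 (1.19) and COL6A6 (2.96). COL6A5, with 1 count in wild-type E41, was not called for this difference, and its fitted value is not read.

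The calls of COL6A1, COL6A2 and COL6A3 did not end with any library left out, nor did that of COL6A5 at E62, although its change ran from 3.81 to 6.21 without one or the other wild-type E62 library. The E62 call of COL6A6 ended without each knockout library in turn (adjusted p = 0.054 without knockout E41 replicate 1, 0.054 without knockout E41 replicate 2, 0.096 without knockout E62 replicate 1 and 0.066 without knockout E62 replicate 2) and in a fit of the E62 libraries alone (0.060). Its change was 1.48 without wild-type E62 replicate 1 and 3.09 without wild-type E62 replicate 2.

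**Figure D4:**
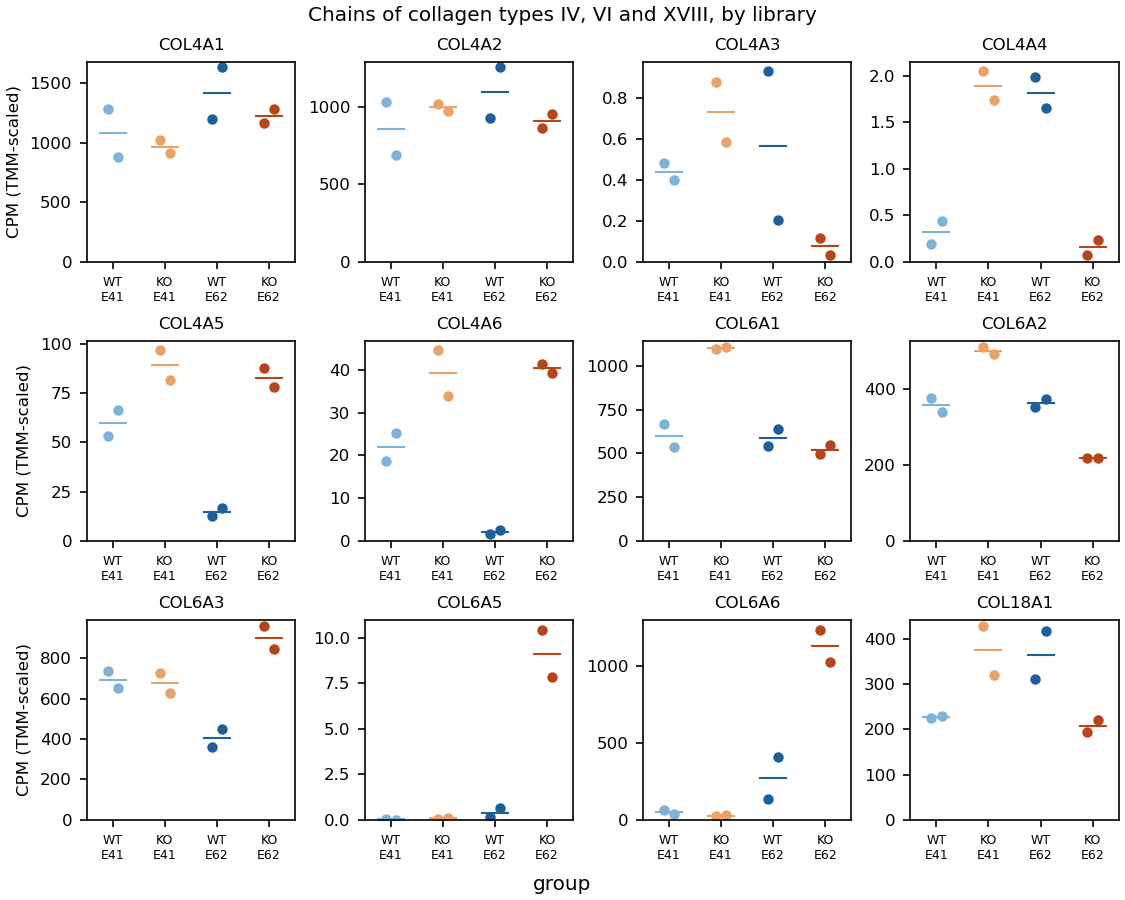
TMM-scaled CPM (vertical axis, from 0 in each panel) of type IV and type VI chains and COL18A1 by group, with 1 point per library and a line at the group mean of 2 libraries. COL4A5 and COL4A6 are low in wild-type E62 alone (1.59 and 2.59 CPM for COL4A6), COL6A5 and COL6A6 are high in knockout E62 alone, and COL4A1 and COL4A2 overlap between genotypes.

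Among the 2 multiplexins, COL18A1 rose at E41 and fell at E62, and COL15A1 was not called at either stage. COL15A1 and COL18A1 encode basement membrane collagens that carry heparan or chondroitin sulphate chains, and the end of the COL18A1 protein is endostatin. COL18A1 stood at 226 and 229 CPM in wild type at E41 against 429.8 and 320.3 in the knockout and, at E62, 311 and 417 against 193 and 221. It rose at E41 by 0.72 ± 0.18 (adjusted p = 0.017) and fell at E62, at -0.81 ± 0.18 (adjusted p = 0.0081). COL15A1 stood at 302 and 197 CPM in wild type at E41 against 389 and 393 in the knockout and, at E62, 246 and 348 against 153 and 216. Its knockout libraries lay above wild type at E41 and below at E62, with 0.65 ± 0.27 (adjusted p = 0.095) and -0.69 ± 0.27 (adjusted p = 0.071). The adjusted p of COL18A1 at E41 was 0.071 without wild-type E41 replicate 1, 0.073 without wild-type E41 replicate 2 and 0.11 without knockout E41 replicate 1.

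Transmembrane collagens sit in the cell surface with a collagen domain outside the cell. Of the 4, 2 rose at E41 (50%, against 18.5% of all tested genes). At E62, 2 rose and 1 fell (50% and 25%, against 21.0% and 26.2%). COL13A1, known from the neuromuscular junction and other cell contacts, stood at 9.23 and 9.69 CPM in wild type at E41 against 30.1 and 29.1 in the knockout and, at E62, 4.06 and 2.97 against 11.8 and 13.05. It rose by 1.64 ± 0.16 (adjusted p = 0.00029) at E41 and 1.82 ± 0.17 (adjusted p = 0.00011) at E62 and was called at both stages whichever library was left out. COL23A1 stood at 35.9 and 44.2 CPM in wild type at E41 against 103 and 86.4 in the knockout and, at E62, 47.7 and 54.8 against 9.88 and 4.72. At E41 it rose by 1.24 ± 0.33 (adjusted p = 0.026), and at E62 it fell, at -2.81 ± 0.35 (adjusted p = 0.0012), the gene's lowest levels being in knockout E62. COL25A1, needed for motor nerves to enter muscle, stood at 11.8 and 16.3 CPM in wild type at E41 against 15.8 and 24.9 in the knockout and, at E62, 5.89 and 8.48 against 14.1 and 14.0. It gave 0.53 ± 0.27 (adjusted p = 0.16) at E41 and rose at E62 by 0.97 ± 0.27 (adjusted p = 0.022). Without one library the E41 adjusted p of COL23A1 was 0.12 without wild-type E41 replicate 1, 0.076 without wild-type E41 replicate 2, 0.12 without knockout E41 replicate 1 and 0.071 without knockout E41 replicate 2, and its E62 change was -3.45 without knockout E62 replicate 1. The E62 adjusted p of COL25A1 was 0.13 without wild-type E62 replicate 1, 0.064 without knockout E62 replicate 1 and 0.063 without knockout E62 replicate 2.

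COL17A1, a hemidesmosome protein that anchors epidermal cells to their basement membrane, followed the epidermal markers library by library. It stood at 59.1 and 102 CPM in wild type at E41 against 189.7 and 91.8 in the knockout and, at E62, 0.301 and 0.265 against 145 and 1.27. In knockout E62 nearly all of it came from replicate 1, where the epidermal markers summed to 1132 CPM against 53.5 in replicate 2. At E62 2 of the 9 epidermal markers were called higher (22.2%, near the 21.0% of all tested genes), and none at E41. The changes were 0.80 ± 1.73 (adjusted p = 0.75) and 8.0 ± 2.74 (adjusted p = 0.069). Without knockout E62 replicate 2 the E62 adjusted p was 0.00097, and DESeq2 gave 8.4e-06 with both libraries, but the value rests on 1 library. The part of epidermal tissue in it was not tested. COL28A1, of no class above, had 40 and 23 counts in wild type at E41 against 37 and 41 in the knockout and, at E62, 17 and 69 against 92 and 44, and gave -0.80 ± 0.68 (adjusted p = 0.39) and -0.28 ± 0.66 (adjusted p = 0.75). Scaled to library size it stood at 1.93 and 1.02 CPM in wild type at E41 against 0.80 and 0.89 in the knockout. At E62 the levels were 0.51 and 2.03 CPM against 1.36 and 0.73.

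None of the 6 cartilage type collagens was called at either stage, while 19 of the other 34 were called at E41 and 23 at E62, against 39.2% and 47.2% of all tested genes. The median log2 change of the 6 was 1.91 at E41 and 1.33 at E62, and that of the other 34 was 0.77 and 0.91. With SEs of 0.60 to 1.86 at E41, the missing calls do not show that the 6 genes did not differ. Type II collagen is the fibril of cartilage, types IX and XI sit in and on that fibril, and type X marks hypertrophic cartilage. COL2A1 stood at 639 and 209 CPM in wild type at E41 against 248 and 2216 in the knockout and, at E62, 44.0 and 40.3 against 71.3 and 23.6. COL9A1 stood at 121 and 18.8 CPM in wild type at E41 against 20.9 and 653 in the knockout and, at E62, 6.11 and 1.41 against 14.4 and 3.77. COL9A3 stood at 68.2 and 11.7 CPM in wild type at E41 against 110.3 and 554 in the knockout and, at E62, 7.58 and 10.9 against 26.6 and 27.3. In knockout E41, replicate 2 was the high library for each of them, and in wild-type E41, replicate 1 was.

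COL11A1 stood at 814 and 321 CPM in wild type at E41 against 737 and 1814 in the knockout and, at E62, 145 and 121 against 417 and 277, and COL11A2 at 59.8 and 7.70 CPM in wild type at E41 against 15.2 and 358 in the knockout and, at E62, 12.2 and 12.2 against 13.8 and 8.08. COL10A1 had 16 and 31 counts in wild type at E41 against 1 and 261 in the knockout and, at E62, 1 and 4 against 12 and 40. The changes at E41 were 1.54 ± 1.21 (adjusted p = 0.37) for COL2A1, 2.27 ± 1.86 (adjusted p = 0.39) for COL9A1, 3.06 ± 1.15 (adjusted p = 0.1) for COL9A3, 1.17 ± 0.60 (adjusted p = 0.18) for COL11A1, 2.47 ± 1.66 (adjusted p = 0.3) for COL11A2 and 1.40 ± 1.71 (adjusted p = 0.56) for COL10A1. At E62 they were 0.17, 1.28, 1.54, 1.39, -0.16 and 2.45 in the same order. For COL9A3, COL10A1 and COL11A1 both knockout libraries at E62 lay above both wild-type ones, and for the other 3 they overlapped.

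The 13 cartilage markers, which hold no collagen gene, summed to 349 and 85.2 CPM in wild type at E41 against 145 and 1684 in the knockout and, at E62, 104 and 112 against 43.1 and 37.7. The same 2 libraries, wild-type E41 replicate 1 and knockout E41 replicate 2, were high in their group, for example in ACAN, the aggrecan core protein, at 33.7 and 4.16 CPM in wild-type E41 and 6.48 and 201 in knockout E41. Of these markers SNORC was at 0 in both wild-type E62 libraries and in knockout E62 replicate 2. At E41 2 markers were called higher (15.4%, against 18.5% of all tested genes). At E62 1 was called higher and 1 lower (7.69% each, against 21.0% and 26.2%). The median log2 change of the 13 markers was 2.19 at E41 and 0.81 at E62. At E62 the sum was thus lower in the knockout while the median change was positive. How much cartilage entered each library was not tested. Between the 2 knockout E41 libraries COL1A1 differed by 0.137 on the log2 scale and COL2A1 by 3.16.

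**Figure D5:**
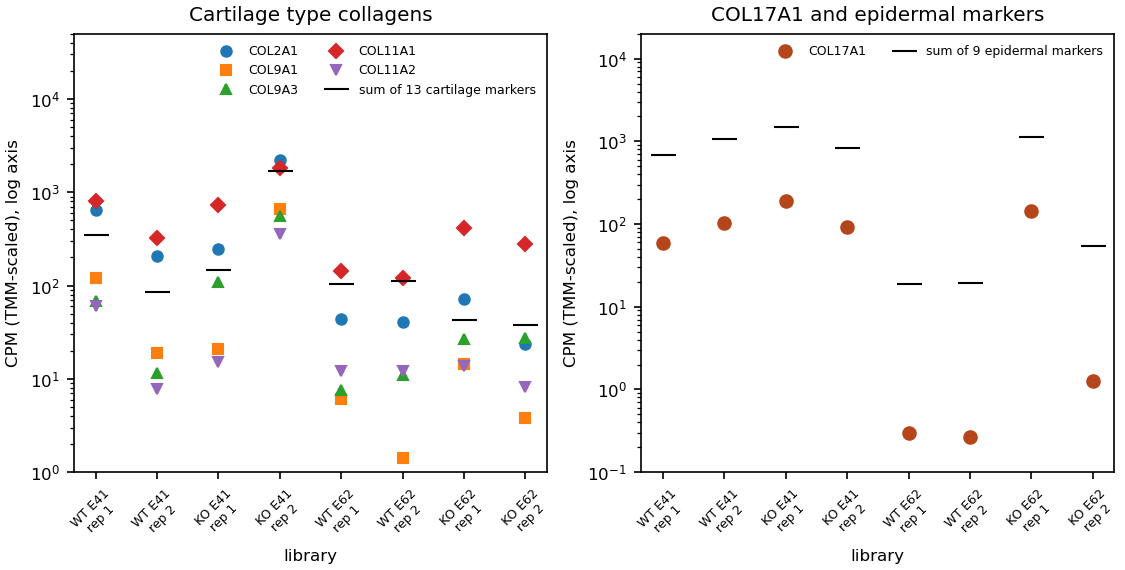
Left, TMM-scaled CPM on a log axis of 5 cartilage type collagens and the summed level of 13 cartilage markers in each library; right, COL17A1 and the summed level of 9 epidermal markers. Knockout E41 replicate 2 is the highest library for COL2A1 (2216 CPM) and for the cartilage markers, and COL17A1 is high in 1 of the 2 knockout E62 libraries, as are the epidermal markers.

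Between E41 and E62, 15 collagens changed in each genotype. In wild type 6 rose with age and 9 fell, against 19.8% and 20.0% of all tested genes (39.8% in either direction), with a median of -0.09 and 0.03 over all genes. At 15.0% higher and 22.5% lower, the wild-type counts are near what all genes gave. In the knockout 5 rose and 10 fell, against 12.1% and 18.0% (30.1% in either direction), with medians of -0.32 and -0.03. There the 12.5% that rose is near the share of all genes, and 25.0% fell. Wild type had 3 rises without wild-type E41 replicate 2 and 5 falls without wild-type E62 replicate 2, and the knockout had 3 rises without knockout E41 replicate 1 or knockout E62 replicate 2. Replicates of the 2 stages did not overlap for 7 genes higher and 14 lower at E62 in wild type, where the shares over all tested genes were 36.5% and 34.3%, and for 13 and 20 in the knockout, where they were 34.7% and 40.6%.

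In wild type the rises from E41 to E62 were in COL5A3 (1.28 ± 0.19, adjusted p = 0.0022), COL27A1 (1.65 ± 0.27, adjusted p = 0.0046), COL4A4 (2.49), COL6A6 (2.44 ± 0.57, adjusted p = 0.022), COL18A1 (0.68) and COL6A5. For COL6A5, 26 counts against 1 gave a ratio of 16.8 with an interval of 2.75 to 687. The falls in wild type were led by COL4A6 (-3.39 ± 0.27, adjusted p = 0.00032) and took in COL8A2 (-2.35), COL22A1 (-2.30), COL8A1 (-2.12), COL11A1 (-2.10), COL4A5 (-2.05), COL13A1 (-1.43), COL25A1 (-0.97) and COL6A3 (-0.78). COL5A3, COL27A1, COL4A5, COL4A6, COL6A3 and COL13A1 were called whichever library was left out. The others lost the call without at least 1 library, with a highest adjusted p of 0.065 for COL4A4, 0.097 for COL6A6, 0.08 for COL18A1, 0.2 for COL6A5, 0.11 for COL8A2, 0.056 for COL22A1, 0.057 for COL8A1, 0.21 for COL11A1 and 0.17 for COL25A1.

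In the knockout the rises were in COL6A5 (6.86 ± 0.82, adjusted p = 0.0019), COL6A6 (5.39 ± 0.65, adjusted p = 0.0043), COL5A3 (2.06), COL3A1 (1.20 ± 0.34, adjusted p = 0.035) and COL24A1 (0.82). The falls were led by COL23A1 (-3.69 ± 0.36, adjusted p = 0.0019), COL4A4 (-3.61), COL8A1 (-3.23), COL8A2 (-3.22) and COL4A3 (-3.20), followed by COL13A1 (-1.25), COL6A2 (-1.21), COL6A1 (-1.08), COL15A1 (-1.08) and COL18A1 (-0.86). COL5A3, COL6A5, COL6A6, COL8A1, COL8A2 and COL13A1 were thus called the same way in both genotypes, and COL4A4 and COL18A1 in opposite ways. The shares of all tested genes called in these ways were not computed. Leaving out 1 library ended the knockout calls of COL3A1 (highest adjusted p 0.16), COL24A1 (0.092), COL4A3 (0.14), COL15A1 (0.099) and COL18A1 (0.077).

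The knockout effect itself differed between the stages for 11 of the 40 collagens, 5 with a higher and 6 with a lower change at E62, against 11.2% and 15.5% of all tested genes (26.8% in either direction). The median difference was 0.10, and 0.01 over all genes. The 5 with a higher change at E62 were COL4A6, COL6A6, COL4A5, COL6A3 and COL24A1 (0.97 ± 0.25, adjusted p = 0.026). The 6 with a lower change were COL4A4 (-6.11 ± 0.87, adjusted p = 0.003), COL23A1 (-4.05 ± 0.47, adjusted p = 0.003), COL18A1 (-1.53 ± 0.26, adjusted p = 0.0056), COL15A1 (-1.34 ± 0.38, adjusted p = 0.04), COL6A2 (-1.23 ± 0.14, adjusted p = 0.0014) and COL6A1 (-1.05 ± 0.20, adjusted p = 0.0084). By class they are 3 type IV chains, 4 type VI chains, both multiplexins, 1 transmembrane collagen and 1 fibrillar chain, and no FACIT and no cartilage type collagen. Leaving out 1 library ended the call for COL24A1 (up to 0.094), COL6A6 (up to 0.15) and COL15A1 (up to 0.11). The other 8 kept it under every such fit, COL6A6 was also not called without the filter on low counts (adjusted p = 0.067), and without wild-type E41 replicate 2 the count with a higher change was 3.

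Chains that share a molecule did not always keep 1 ratio. The log2 ratio of COL6A3 to COL6A1 was 0.15 and 0.29 in wild type at E41 against -0.59 and -0.82 in the knockout and, at E62, -0.57 and -0.50 against 0.96 and 0.63. It was thus lower in the knockout at E41 and higher at E62, and replicates lay closer to each other than to the other genotype of their stage. The ratio of COL4A5 to COL4A6 was 2.96 and 2.66 in wild-type E62 and between 0.99 and 1.51 in the other 6 libraries. For COL1A1 to COL1A2 it was -0.70 and -0.66 in wild type at E41 against -0.13 and -0.28 in the knockout and, at E62, -0.39 and -0.19 against -0.08 and -0.05. Both knockout libraries thus lay above both wild-type libraries at each stage. At E62 the gap between the genotypes was smaller than the difference between the wild-type replicates. The COL4A1 to COL4A2 ratio was 0.33 and 0.36 in wild type at E41 against 0.00 and -0.09 in the knockout and, at E62, 0.37 and 0.38 against 0.43 and 0.43, so it was lower in knockout E41 than in every other group. These ratios were not tested. Ratios within a library do not depend on its scaling, and because genes differ in length only their movement between libraries can be read.

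Several of these genes lie close together in the RefSeq annotation of Sscrofa11.1, in which 39 of the 40 symbols were found and 38 had a chromosome. COL4A4 (chromosome 15, 128472228 to 128612302) and COL4A3 (128611640 to 128763331) overlap at their ends by 663 bases, and COL4A1 (chromosome 11, 76858332 to 76997409) and COL4A2 (76996885 to 77161617) by 525 bases. The strand used in counting is not given in the sources used here, so reads in such an overlap cannot be assigned to 1 gene of a pair. COL4A6 and COL4A5 lie 207898 bases apart on the X chromosome, and both rose at both stages. COL6A6 and COL6A5 lie 43574 bases apart on chromosome 13, and both rose at E62. Between the start positions of these 2 genes, 3 other genes start. COL3A1 and COL5A2 are 16177 bases apart on chromosome 15, and both rose at E62 without a call at E41. COL19A1 and COL9A1 are 1098 bases apart on chromosome 1, and 1 other gene starts between their start positions. They did not move together, since COL19A1 fell by 2.97 at E41 and by 3.26 at E62 while COL9A1 gave 2.27 and 1.28, not called.

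Proteins that make, arrange and bind collagen were read from 4 lists. In the chain modification and folding list (21 genes: prolyl and lysyl hydroxylases, chaperones and their regulators), 5 rose and 2 fell at E41 and 6 rose and 2 fell at E62, with medians of 0.07 and 0.04. These are 23.8% and 28.6% higher, near the 18.5% and 21.0% of all tested genes, and the medians are near the 0.09 and 0.06 of all genes. CREB3L1, a transcription factor that drives type I collagen in bone, rose by 1.20 ± 0.16 (adjusted p = 0.0011) at E41 and 0.65 ± 0.16 (adjusted p = 0.012) at E62. SERPINH1, the collagen chaperone HSP47, stood at 959.6 and 809 CPM in wild type at E41 against 1430.3 and 1437 in the knockout and, at E62, 727 and 718 against 754 and 898. It rose at E41 by 0.70 ± 0.13 (adjusted p = 0.0049) and gave 0.19 ± 0.13 (adjusted p = 0.26) at E62. PPIB, a prolyl isomerase of the same pathway, fell at E41 (-0.49 ± 0.11, adjusted p = 0.0094) and rose at E62 (0.34 ± 0.11, adjusted p = 0.033). TMEM38B, an ion channel of the endoplasmic reticulum needed for collagen export, fell at E62 (-1.80 ± 0.16, adjusted p = 9.6e-05), and so did the prolyl hydroxylase P4HA3 (-1.32 ± 0.26, adjusted p = 0.0062).

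Of 15 genes for procollagen cleavage and cross-linking, 7 rose and 2 fell at E41 and 8 rose and 3 fell at E62, with medians of 0.89 and 0.83. These are 46.7% and 53.3% higher, against 18.5% and 21.0% of all tested genes, and 13.3% and 20.0% lower, against 20.8% and 26.2%. ADAMTS2, the enzyme that removes the amino-terminal propeptide of types I and III, stood at 126 and 93.7 CPM in wild type at E41 against 209 and 199 in the knockout and, at E62, 152 and 147 against 267 and 320.4. It rose by 0.89 ± 0.15 (adjusted p = 0.0029) and 0.97 ± 0.15 (adjusted p = 0.0014). ADAMTS3 and ADAMTS14, of the same family, also rose at both stages. Of the proteinase genes BMP1, TLL1 and TLL2, TLL1 rose at both stages (0.94 ± 0.29, adjusted p = 0.034, and 2.66 ± 0.32, adjusted p = 0.00042). BMP1 rose at E62 (0.83 ± 0.18, adjusted p = 0.0083), and TLL2 fell at both stages (-3.51 ± 0.41, adjusted p = 0.00056, and -2.26 ± 0.40, adjusted p = 0.0026). The cross-linking enzyme LOXL1 rose at both stages (1.34 and 0.51), whereas LOXL4 rose at E41 (1.26 ± 0.27, adjusted p = 0.0087) and fell at E62 (-1.31 ± 0.26, adjusted p = 0.0053).

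Proteins that organise fibrils (19 genes) gave 4 rises and 1 fall at E41 and 4 rises and 3 falls at E62, with medians of 0.48 and 0.28. The share that rose, 21.1% at each stage, is near the 18.5% and 21.0% of all tested genes. LUM, the fibril-bound proteoglycan lumican, rose at E41 (1.41 ± 0.33, adjusted p = 0.015). FN1, fibronectin, rose at E62 (1.05 ± 0.21, adjusted p = 0.0045), as did DCN, decorin (0.71 ± 0.17, adjusted p = 0.011), and POSTN, periostin (1.50 ± 0.37, adjusted p = 0.014). TNXB, tenascin-X, fell at both stages (-2.19 ± 0.27, adjusted p = 0.0012, and -0.95 ± 0.25, adjusted p = 0.02). Of 9 collagen receptors tested, 2 rose and 1 fell at E41 and 4 rose and 1 fell at E62, with medians of 0.38 and 0.49. At E41 the 22.2% that rose is near the 18.5% of all tested genes, and at E62 it was 44.4% against 21.0%. ITGA11, an integrin chain that binds fibrillar collagen on fibroblasts, stood at 15.7 and 10.4 CPM in wild type at E41 against 30.2 and 47.4 in the knockout and, at E62, 3.31 and 4.27 against 20.6 and 38.1, and rose by 1.57 ± 0.39 (adjusted p = 0.021) and 2.95 ± 0.41 (adjusted p = 0.0018). MRC2, which takes up collagen fragments, rose at both stages (1.10 and 0.72). CD44 fell at E41 (-1.77 ± 0.19, adjusted p = 0.00045) and DDR1, a collagen-binding kinase of epithelia, fell at E62 (-1.32 ± 0.19, adjusted p = 0.0014). GP6, the platelet collagen receptor, had 0 counts in wild-type E41 and was too low to test.

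Markers of connective tissue fibroblasts were also higher in the knockout. Their summed level over 10 genes was 5289.9 and 4113 CPM in wild type at E41 against 8299.6 and 8344 in the knockout and, at E62, 3399 and 4891 against 7006 and 7214, and 6 of 10 rose at E41 and 7 of 10 at E62, with none lower and medians of 0.86 and 1.07. PDGFRA, a receptor that marks these cells, rose by 0.55 ± 0.10 (adjusted p = 0.0046) and 1.38 ± 0.10 (adjusted p = 3.9e-05). The list holds LUM and DCN, which are also in the fibril list above, and its most abundant genes are matrix genes. What part these cells had in the collagen levels was not tested. Of 7 tendon markers none was called at E41, and 1 rose and 1 fell at E62, with summed levels of 2255 and 1138 CPM in wild type at E41 against 1539.9 and 2291 in the knockout and, at E62, 1293 and 1346 against 1156 and 1035. Of 10 smooth muscle and pericyte markers, 1 rose and 4 fell at E41 and 2 rose and 5 fell at E62, with a sum of 1666 and 1456 CPM in wild type at E41 against 727 and 757 in the knockout and, at E62, 1886 and 2008 against 751 and 895. The lower sum lies largely in ACTA2, the most abundant of them in wild type. It stood at 972 and 831 CPM in wild type at E41 against 66.5 and 66.7 in the knockout. At E62 ACTA2 stood at 1025 and 894 against 129 and 116. Endothelial markers (9 genes) gave 3 rises at E41 and 4 at E62 with no fall, and summed to 837 and 679.6 CPM in wild type at E41 against 1054 and 946 in the knockout and, at E62, 867 and 883 against 994 and 1598. For comparison with these marker lists, 18.5% of all tested genes were called higher and 20.8% lower at E41, and 21.0% and 26.2% at E62.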

How the data were processed

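Bulk RNA was sequenced in 8 libraries of pig embryo limb muscle, and genotype, stage and replicate number were taken from the sample labels. The authors deposited 1 table of estimated counts (also called expected counts), whole numbers without normalization. Tools named without a role, per the submitters' processing notes, are kallisto and DESeq2, with the builds susScr11 and Sscrofa11.1. Not given in the sources used here are the annotation release, filters, rounding and strand of counting. Kits with and without strand marking are named, per the labels' protocols. Estimated counts divide reads among similar transcripts, so gene neighbours that overlap and close paralogs are uncertain.

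Symbols were found for 15527 of 22516 gene identifiers (69%). With edgeR 4.0.16 (R 4.3.3), counts were rounded, filtered by filterByExpr (minimum count 10, 17020 genes left), scaled by TMM and fitted with 1 mean per group over all 8 libraries, in a robust quasi-likelihood fit (4 residual degrees of freedom, common biological variation 0.204 as a coefficient). Two-sided F tests were adjusted by Benjamini-Hochberg over all tested genes, with a threshold of 0.05, for the genotypes at each stage, the difference of these effects and E62 against E41 in each genotype. Within groups, replicate counts varied beyond counting noise, at a chi-square of 31.9 to 70.9 per degree of freedom, and each library counts as 1 sample. Nothing says whether replicates come from separate litters, and a p-value measures only how these libraries spread. Intervals cover counting error only.

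The members and all gene lists were chosen with earlier results of these data known. Every member is accounted for. Named were, in each class, up to 4 called members with the largest change, up to 2 with the highest CPM and up to 2 called against the majority, and from each partner list up to 4 genes of smallest p and up to 2 against the majority; further members and partner genes were named after their values were seen. Alternatives were DESeq2 1.42.0, library size alone, relative log expression factors, TMM without the list genes, no filter, at least 1 CPM in 4 libraries, a replicate block, only the groups compared and each library left out. On data simulated for the E41 comparison (16726 genes), 30 of 50 genes changed 2-fold and 42, 47 and 48 of 50 changed 4-fold, 8-fold and 16-fold were recovered, with 19 calls among unchanged genes. The simulation changed only 200 genes, up or down at random, whereas 39.2% of tested genes were called in the real E41 comparison. Its rates of recovery and of false calls therefore do not carry over to the real data.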

Additional observations from a re-analysis of the deposited data

Results flagged for a closer look

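For 11 collagen genes the test of the difference itself found that the knockout change at E62 differed from that at E41. All values are the E62 change minus the E41 change on the log2 scale, with n = 2 libraries per group, and adjusted p from edgeR's quasi-likelihood F test. Among type IV chains, the difference was -6.11 ± 0.87 (adjusted p = 0.003) for COL4A4, 1.94 ± 0.24 (adjusted p = 0.002) for COL4A5 and 3.43 ± 0.35 (adjusted p = 0.0013) for COL4A6. COL4A5 and COL4A6 rose at both stages and more at E62, and COL4A4 rose at E41 and fell at E62. Among type VI chains, it was -1.05 ± 0.20 (adjusted p = 0.0084) for COL6A1, -1.23 ± 0.14 (adjusted p = 0.0014) for COL6A2, 1.19 ± 0.21 (adjusted p = 0.0061) for COL6A3 and 2.96 ± 0.78 (adjusted p = 0.044) for COL6A6. COL6A1 and COL6A2 thus had lower knockout changes at E62, and COL6A3 and COL6A6, whose longer chains join them in the molecule, had higher ones. Both multiplexins had lower changes at E62, with -1.34 ± 0.38 (adjusted p = 0.04) for COL15A1 and -1.53 ± 0.26 (adjusted p = 0.0056) for COL18A1. COL23A1 gave -4.05 ± 0.47 (adjusted p = 0.003) and COL24A1 gave 0.97 ± 0.25 (adjusted p = 0.026). Over all tested genes, 11.2% had a higher and 15.5% a lower change at E62, so the count of 11 of 40 (5 higher and 6 lower) is near what all genes gave.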

How the results depend on the processing

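Each library was left out in turn, and the number of collagen genes called then ran from 7 to 16 higher in the knockout at E41 (9 without wild-type E41 replicate 2 and 7 without knockout E41 replicate 1, against 17), from 9 to 16 at E62 (9 without wild-type E62 replicate 1, against 16), from 3 to 5 for a higher change at E62 than at E41 (3 without wild-type E41 replicate 2, against 5), from 3 to 6 for rises with age in wild type (3 without wild-type E41 replicate 2, against 6), from 5 to 11 for falls with age in wild type (5 without wild-type E62 replicate 2, against 9), and from 3 to 6 for rises with age in the knockout (3 without knockout E41 replicate 1 or knockout E62 replicate 2, against 5). All tested genes lost calls too, from 39.2% to 22.5% without knockout E41 replicate 1. DESeq2 called 8 genes with a higher change at E62, and 8 higher and 16 lower with age in the knockout, where a fit of only the groups compared called 11 higher. The other counts of calls stayed within 1.5 times under the other alternatives run. Library size alone, in place of TMM, moved the median of all genes from 0.09 to 0.38 at E41 and from 0.06 to 0.36 at E62, with 21 and 20 collagens higher and 2 and 7 lower. COL10A1 at E41 gave adjusted p = 0.047 with a log2 change of -5.45 without knockout E41 replicate 2, and up to 0.77 with other libraries left out. The causes were not tested. Replicate numbers do not pair the samples, since deviations of same-numbered libraries correlated from -0.30 to 0.10. With the replicate block, 15 rose and 2 fell at E41, 16 rose and 7 fell at E62, and these calls ended: COL1A1 (adjusted p = 0.071) and COL12A1 (0.062) at E41, COL6A6 (0.064) and COL15A1 (0.068) for the difference between stages, COL11A1 (0.074) and COL6A5 (0.068) with age in wild type and COL3A1 (0.06) with age in the knockout, while COL4A3 (0.05) passed for the difference between stages. Without the filter on low counts, calls ended for COL8A2 at E41 (0.056), COL6A6 for the difference between stages (0.067) and COL11A1 with age in wild type (0.069). With 2 libraries per group a missed call does not show that a gene did not differ, and COL4A3, COL4A4, COL10A1 and COL6A5 had so few counts in some groups that counting error adds to the spread.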

Other observations

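Markers of 3 further cell types were read beside the collagens. Of all tested genes, 18.5% were called higher and 20.8% lower at E41, and 21.0% and 26.2% at E62. Of 8 blood and macrophage markers, 2 rose at E41 and 7 at E62, with none lower, and a sum of 3832 and 2706 CPM in wild type at E41 against 4601 and 9403 in the knockout and, at E62, 4237 and 1278 against 4928 and 8598, most of it from HBB, the β chain of haemoglobin. HBB itself gave 1.12 ± 0.70 (adjusted p = 0.26) at E41 and 1.23 ± 0.71 (adjusted p = 0.2) at E62, so the rises lie in the other markers of the list. Of 9 bone markers tested, 1 rose at E41, and 4 rose and 2 fell at E62. They summed to 665 and 505 CPM in wild type at E41 against 714 and 715 in the knockout and, at E62, 247 and 271 against 1986 and 986, most of it from SPP1, osteopontin, which rose at E62 (2.59 ± 0.43, adjusted p = 0.004). MEPE was at 0 in 6 of the 8 libraries. Among 6 markers of peripheral glia, 3 rose and 1 fell at E41 and 1 rose and 2 fell at E62, and the sum was 364 and 385 CPM in wild type at E41 against 197 and 131 in the knockout and, at E62, 502 and 518 against 55.5 and 62.3. ERBB3, a neuregulin receptor and the most abundant of them, fell at both stages (-2.64 ± 0.24, adjusted p = 0.00034, and -4.64 ± 0.27, adjusted p = 2.1e-05). It stood at 312 and 321 CPM in wild type at E41 against 59.9 and 41.8 in the knockout. At E62 it stood at 464 and 462 against 22.5 and 14.5, so the sum follows mainly this gene. The 3 rises at E41 lie in other markers of the list. What part these cells had in any collagen level was not tested.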
